A study of Homo sapiens with 54 samples.

Results

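The genes described here make up the transcriptional hypoxia response and the glycolytic pathway: the hypoxia-inducible factor (HIF) alpha subunits, the enzymes that sense oxygen, classical HIF targets, glucose transporters and control enzymes, the enzymes of glycolysis, and the enzymes that set the fate of pyruvate. A total of 34 genes were named, and each was followed through the probe set with the highest mean among those that carry that gene symbol alone. Such a probe set was found for 32 of the 34 genes, out of 18417 genes measured in this way. CA9 (carbonic anhydrase 9) and PGAM1 (phosphoglycerate mutase 1) had none and are not analysed here, and the PGAM1 probe sets also carried the symbol of PGAM4. The genes named most often below were read by probe sets 8119898 (VEGFA), 8145454 (BNIP3L), 7974851 (HIF1A), 8041781 (EPAS1), 7937079 (BNIP3), 8043283 (KDM3A), 7938390 (ADM) and 7960865 (SLC2A3).

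In cells with ample oxygen, prolyl hydroxylases (EGLN proteins) mark HIF-alpha for ubiquitination by the VHL complex, and HIF-alpha is degraded. When oxygen is scarce HIF-alpha accumulates, pairs with ARNT and binds short DNA elements near genes for angiogenesis, mitochondrial turnover, glucose uptake and glycolysis. Pyruvate is then steered to lactate and away from the mitochondrion. Genes of glucose uptake and glycolysis can thus be HIF targets too. Among the 32 genes, "HIF targets" below names only a group of 11 set apart by role. Calcitriol, the hormonal form of vitamin D, acts through the vitamin D receptor, a nuclear receptor whose best known target is the 24-hydroxylase gene CYP24A1.

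RNA levels were measured on 54 Affymetrix Gene 1.0 ST arrays, which read total RNA of 9 human cell lines: cells with no agent (0 h) and cells given calcitriol for 8 h or 36 h, with 2 arrays for each line and time. The lines were the HapMap lymphoblastoid lines GM07019, GM07348, GM10854 and GM12878 (B cells transformed with Epstein-Barr virus), the Ag09309 and Ag09319 lines, and HL60 (promyelocytic leukaemia), K562 (erythroleukaemia) and HEP-G2 (hepatoma). The study asked which genes change in cells stimulated with calcitriol against untreated cells. No dose, medium, oxygen tension or cell density is given in the labels, and cultures without calcitriol at the later times are not analysed here, so calcitriol and time in culture cannot be told apart. The titles mark the arrays of a group BR1 and BR2, and nothing in the labels says that they come from separate cultures, so the spread behind every p-value is that of these samples alone and may be technical. The titles of GM12878, Ag09319 and HEP-G2 also carry a date, the same on all their arrays, and those of the other 6 lines carry none; what the date marks is not stated. All levels are log2 units on the deposited scale, changes are differences of log2 levels, and ± is the standard error (SE) of the fit. A gene is called where its limma p, two-sided and adjusted by Benjamini-Hochberg over 19460 probe sets, is under 0.05. Signals of different genes come from different probes and are not compared with each other.

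The arrays had medians of 4.98 to 5.31, and the median correlation between the 2 arrays of a group was 0.987. It was lowest for Ag09319 at 8 h (0.897), HEP-G2 at 0 h (0.954) and K562 at 36 h (0.970). CYP24A1 rose by 2.79 ± 0.49 at 36 h over the 9 lines (adjusted p = 0.00569), from 0.57 in HEP-G2 to 6.44 in HL60. Its 36 h means in the lymphoblastoid lines, 4.16 to 4.74, stayed below the array medians. In K562 its 36 h arrays read 7.15 and 5.03. The labels name no tissue for Ag09309 and Ag09319, and the mean level of 8 fibroblast markers at 0 h was 9.65 in Ag09309 and 9.35 in Ag09319 against 4.03 to 4.60 elsewhere. The mean level was 9.13 for myeloid markers in HL60, 8.5 for erythroid markers in K562 and 10.35 for hepatocyte markers in HEP-G2. In the untreated Ag09309 arrays, however, the mean level of 7 B cell markers was 6.08, between the lymphoblastoid lines (7.72 to 7.93) and the rest (4.36 to 4.94), and it was lower at both later times. In bulk RNA fewer cells of a type and less RNA per cell cannot be told apart.

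The promoters of the genes on which the results turn are shown first, because HIF binds a short core, ACGTG or GCGTG. RefSeq (GRCh38.p14) gave 300-base windows, 250 bases before to 50 after a start site, for 30 of the 34 named genes, 47 windows in all and with CA9 and PGAM1 among them; VEGFA, BNIP3L, NDRG1 and SLC2A3 are named only. The core was read on both strands, where it appears as CACGT or CACGC on the other strand, and CACGTG counts as a site on each. It was found in 35 of the 47 windows (74.5%) and in 17012 of 35116 windows of all genes (48.4%). The windows of these genes were also richer in G and C, with a median of 69.0% against 58.7%, and the part of base composition in the motif share was not tested. A match describes letters and not binding. The lines below give the 250 bases before the start, 5′ to 3′ on the gene's strand, with the cores in capitals: HIF1A (chr14:61695263-61695512, plus strand) and EPAS1 (chr2:46297157-46297406, plus strand), the HIF-alpha subunits, then BNIP3 (chr10:131981924-131982173, minus strand) and KDM3A (chr2:86441121-86441370, plus strand), which rose at 36 h in lymphoblastoid lines, and ADM (chr11:10304823-10305072, plus strand), which rose in Ag09309.
HIF1A: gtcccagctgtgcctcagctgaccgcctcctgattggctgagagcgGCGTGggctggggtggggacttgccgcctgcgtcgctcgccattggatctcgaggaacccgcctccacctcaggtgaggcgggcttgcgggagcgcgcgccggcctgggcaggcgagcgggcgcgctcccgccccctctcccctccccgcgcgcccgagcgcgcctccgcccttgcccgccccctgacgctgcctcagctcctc
EPAS1: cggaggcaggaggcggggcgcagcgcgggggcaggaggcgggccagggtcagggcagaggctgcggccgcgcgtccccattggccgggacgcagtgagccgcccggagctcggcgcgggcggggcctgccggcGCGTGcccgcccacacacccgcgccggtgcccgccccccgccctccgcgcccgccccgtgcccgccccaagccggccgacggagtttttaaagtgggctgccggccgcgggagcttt
BNIP3: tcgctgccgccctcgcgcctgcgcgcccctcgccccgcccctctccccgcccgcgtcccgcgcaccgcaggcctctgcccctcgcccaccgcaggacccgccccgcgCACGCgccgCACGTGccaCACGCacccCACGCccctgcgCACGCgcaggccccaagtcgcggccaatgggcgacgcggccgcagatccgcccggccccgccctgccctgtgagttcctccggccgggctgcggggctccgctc
KDM3A: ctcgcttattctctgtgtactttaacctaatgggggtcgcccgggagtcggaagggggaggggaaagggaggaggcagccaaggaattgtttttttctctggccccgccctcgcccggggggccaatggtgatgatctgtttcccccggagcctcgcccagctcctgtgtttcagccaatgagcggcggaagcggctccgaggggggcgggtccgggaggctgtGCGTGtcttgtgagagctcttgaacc
ADM: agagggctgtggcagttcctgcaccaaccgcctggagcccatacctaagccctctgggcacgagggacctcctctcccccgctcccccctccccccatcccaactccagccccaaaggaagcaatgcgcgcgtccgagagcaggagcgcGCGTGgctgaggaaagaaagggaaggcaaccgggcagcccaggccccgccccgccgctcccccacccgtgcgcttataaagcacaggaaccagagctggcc

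BNIP3 carried 6 cores, all between -143 and -104 bases from the start, with CACGTG among them. The printed windows of HIF1A, EPAS1, KDM3A and ADM carried 1 core each, at -204, -117, -26 and -101. HIF1A and KDM3A have 2 windows each, of which 1 is shown. The other HIF1A window held 0 cores, and the other KDM3A window overlaps the one shown and holds its core at -116.

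Before calcitriol, the lines already differed widely in these genes. The 0 h level differed among the 9 lines for 31 of 32 genes, against 72% of all probe sets, so the share is high for the array as a whole too. The exception was KDM3A, a histone demethylase (F = 2.15, adjusted p = 0.0742). Over the 32 genes the median range between the highest and the lowest line was 1.41, and the median gap between the 2 arrays of a line was 0.19. Setting each line against the mean of the other 8 gave 138 called pairs of 288, against 29.5% of all pairs.

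The HIF-alpha subunits had some of the widest ranges. EPAS1 (HIF-2 alpha) was 9.97 in Ag09319, 7.96 in HEP-G2 and 7.80 in Ag09309, and 4.79 in GM07348, the lowest line, a range of 5.19. HIF1A (HIF-1 alpha) was highest in Ag09309 (9.94) and Ag09319 (9.83), whose arrays overlap, and lowest in HL60 (6.62) and K562 (6.89). The oxygen sensors varied less: EGLN1 ran from 6.10 in GM12878 to 6.88 in HEP-G2, and EGLN3 from 4.66 in HL60 to 5.59 in K562.

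Among the HIF targets, ADM, which encodes the vasodilator peptide adrenomedullin, was 10.51 in Ag09319 and 8.40 in Ag09309, and 6.20 in K562. The collagen prolyl hydroxylases were high in the same 2 lines: P4HA2 was 8.23 in Ag09309 and 7.63 in Ag09319 against 4.91 in GM12878, and P4HA1 was 9.0 and 8.27 against 6.43 in GM07019. BNIP3L, a mitophagy receptor, was also highest there (8.34 and 8.21). HEP-G2 had the highest BNIP3 (8.42; another mitophagy receptor), NDRG1 (7.42; a stress-responsive gene) and VEGFA (7.08; the main angiogenic growth factor), whose lowest lines were HL60 (6.0), K562 (5.45) and GM07019 (5.67). HL60 was highest for MXI1, a MYC antagonist (6.68), and for ERO1A, an oxidase of the endoplasmic reticulum (7.81, with Ag09319 at the same value). ANKRD37, an ankyrin repeat gene, was highest in GM10854 (5.87) and lowest in Ag09319 (4.97).

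The glucose transporters were highest in HEP-G2 and K562. The transporter SLC2A1 (GLUT1) was 10.53 in HEP-G2 and 8.89 in K562, and 6.71 in HL60. SLC2A3 (GLUT3) followed the same order at the top, with 10.13 and 9.41, and was lowest in GM07348 (6.96). The 2 hexokinases, which trap glucose in the cell, had different leading lines: HK1 was 8.86 in K562 (arrays 8.95 and 8.78), 5.26 in HL60 and 4.86 in HEP-G2, while HK2 was highest in HEP-G2 (8.17) and HL60 (8.07). HK1 and HK2 come from different probes, and only the order of lines within each gene is read here. The HK1 arrays of HEP-G2 read 4.39 and 5.34 and those of HL60 5.39 and 5.13, so the order of these 2 lines is within the spread. PFKFB3 and PFKFB4, which set the level of a sugar phosphate that activates glycolysis, were highest in Ag09319 (6.65) and HEP-G2 (6.46).

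The glycolytic enzymes were more even. GAPDH spanned 0.38 (12.26 to 12.64), the narrowest range of all 32 genes, and ALDOA, TPI1 and PGK1 spanned 0.71, 0.75 and 0.70. The brain isoforms were less even: ALDOC was 7.87 in K562 and 5.16 in HL60, and ENO2 was 6.66 in GM12878 and 4.45 in HL60. GPI was highest in HL60 (10.38), ENO1 in K562 (12.06) and PKM in Ag09319 (10.83), with K562 the lowest for PKM (8.98). LDHA, which turns pyruvate into lactate, was highest in Ag09309 (11.49) and Ag09319 (11.32) and lowest in GM07019 (10.07). PDK1, which blocks entry of pyruvate into the citric acid cycle, was highest in HL60 (7.14).

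**Figure D1:**
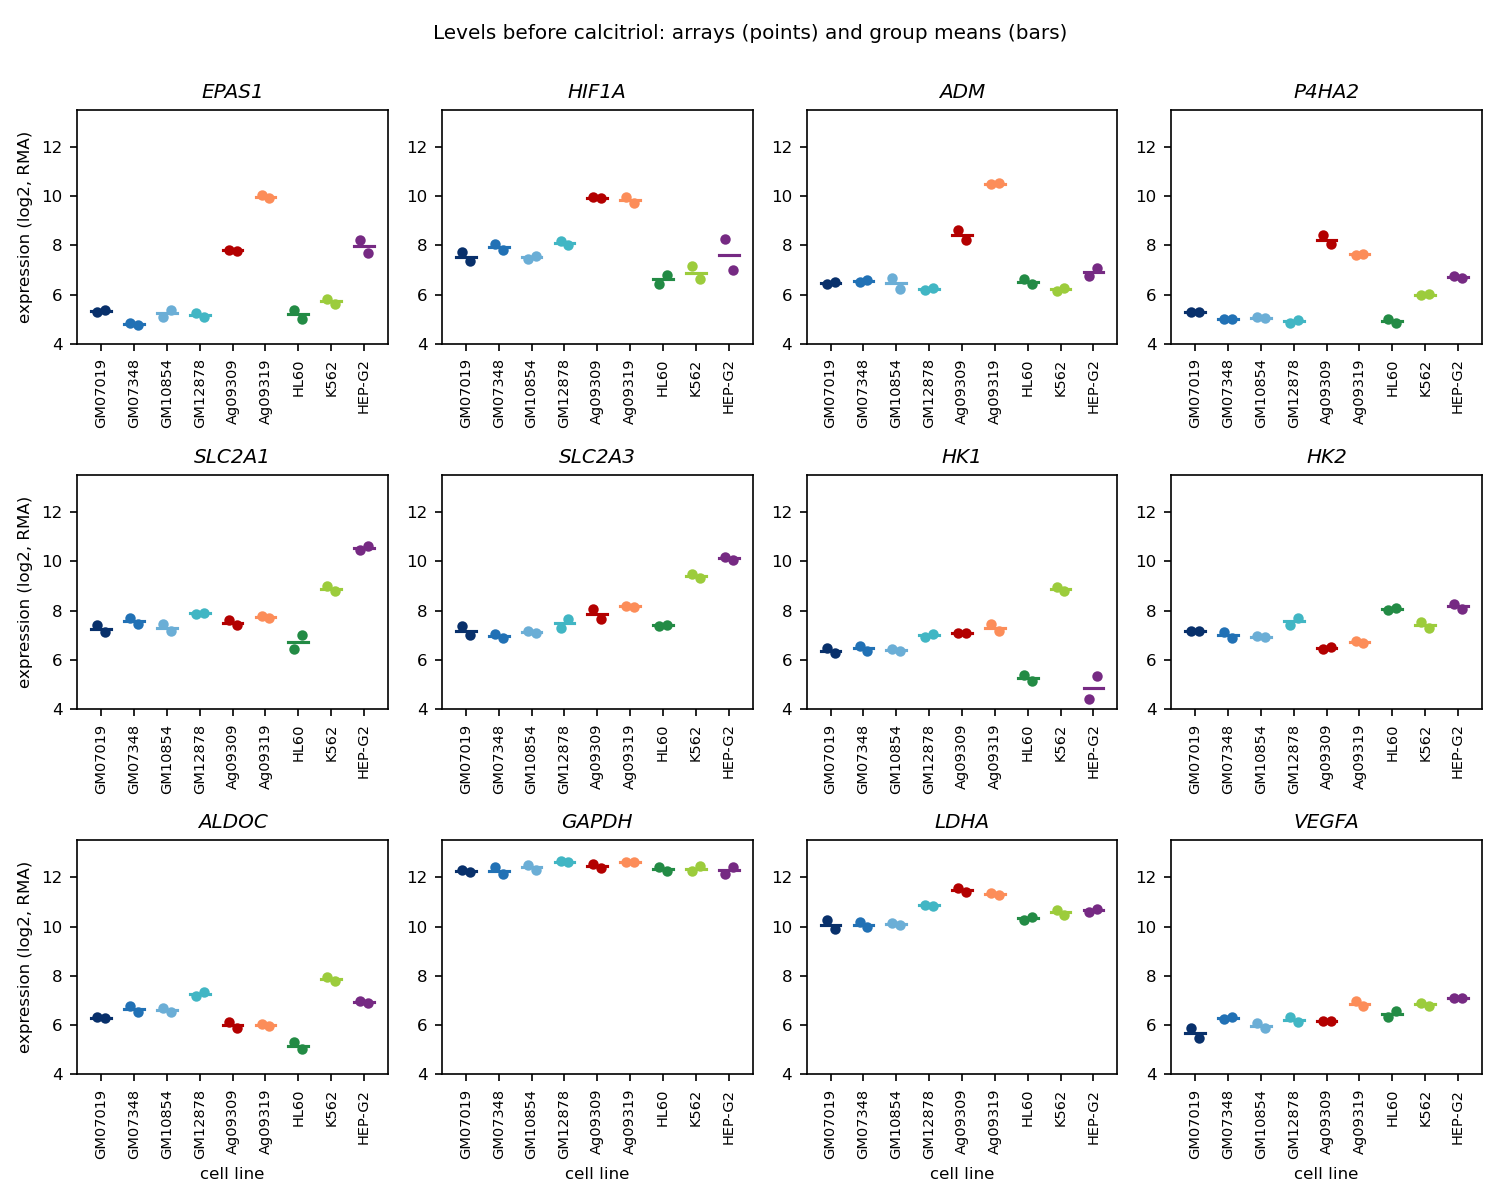
Levels of 12 of the genes in untreated cells (log2, y axis) in the 9 cell lines (x axis); points are single arrays and bars are line means. EPAS1 spans 5.19 between lines and GAPDH 0.38.

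By line, the number of genes called higher or lower than the mean of the other 8 followed no single rule. With the share of all probe sets called in the same direction in brackets, HEP-G2 had 14 higher (30.8%) and 1 lower (24.1%), Ag09319 had 14 higher (18.5%) and 5 lower (18.4%) and Ag09309 had 12 higher (16.2%) and 5 lower (20%). K562 had 8 higher (20%) and 7 lower (17.2%), and HL60 had 8 higher (15.6%) and 13 lower (15.6%). Of the lymphoblastoid lines, GM07019 had 0 higher (6.29%) and 15 lower (10.9%), GM07348 had 0 higher (9%) and 11 lower (12.1%), GM10854 had 2 higher (5.49%) and 12 lower (9.55%) and GM12878 had 5 higher (8.56%) and 6 lower (7.55%). The Ag09309 counts rest on the untreated arrays that carried B cell markers.

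The genes called higher at 36 h over all 9 lines came from the group of HIF targets, most of which were not called. BNIP3L and VEGFA passed against 0 h, each higher in 9 of 9 lines, while no gene for oxygen sensing, glucose entry, glycolysis or pyruvate fate was called. These were 2 of 32 genes, against a background of 0.468% of all probe sets (91 of 19460). The change was positive in 25 of the 32 genes with a median of 0.08, against 53.8% of probe sets and a median of 0.01 over all tested. Such counts, here and below, are not of independent genes, since the genes could also shift together between the 2 arrays of a group. In GM07348 at 0 h, 29 of 32 were higher in the first array (median gap 0.19, against 0.06 over all probe sets), and at 36 h 14 of 32 were. At an unadjusted p under 0.05 there were 9 of the 32 genes and 2710 of all probe sets. Of the 11 targets, 10 had a positive change (median 0.20), and of the 9 glycolytic enzymes 4 did (median -0.03). By line, 0 of the 9 enzymes were positive in HEP-G2 (median -0.23, against 46.9% of all probe sets positive) and 2 in Ag09319 (-0.20, against 49.4%). In K562 (0.23, against 75.4%) and GM07348 (0.10, against 55.4%) 8 were, and the other lines lay between. In K562 the first 36 h array read higher than the second for 31 of the 32 genes.

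BNIP3L had line means at 0 h of 6.01 (GM07019) to 8.34 (Ag09309) with a median of 6.43, and at 36 h of 6.17 (GM07019) to 9.06 (Ag09319) with a median of 6.90. Its mean moved from 6.87 to 7.31, a rise of 0.44 ± 0.08 (1.36-fold, adjusted p = 0.0051), from 0.16 in GM07019 to 0.85 in Ag09319. The ranges of the 2 times overlap, since the lines lie further apart than the times, and the higher mean at 36 h is seen within each line. VEGFA line means ran from 5.67 (GM07019) to 7.08 (HEP-G2) with a median of 6.29 at 0 h, and from 5.98 (GM07019) to 7.57 (HEP-G2) with a median of 6.74 at 36 h. VEGFA rose by 0.41 ± 0.07 (1.32-fold, adjusted p = 0.00594), from 0.16 in GM07348 to 0.84 in Ag09309. In K562 the higher mean of both genes rests on 1 of the 2 arrays at 36 h: BNIP3L read 8.32 and 7.02 against 7.27 and 6.98 at 0 h, and VEGFA 8.17 and 6.85 against 6.89 and 6.77. The second BNIP3L array thus lay between the 0 h arrays, below their mean. With 3 arrays of doubtful groups left out (1 each of Ag09319 at 8 h, HEP-G2 at 0 h and K562 at 36 h) both were still called, at 0.36 (BNIP3L, adjusted p = 0.0424) and 0.33 (VEGFA, adjusted p = 0.0353).

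Next in order of p came KDM3A at 0.31 ± 0.08 (adjusted p = 0.086, higher in 9 of 9 line means) and HIF1A at 0.41 ± 0.11 (adjusted p = 0.0998, 7 of 9 lines), which did not pass. In K562 the second 36 h array of KDM3A lay below the 0 h mean, so its higher mean there rests on the first. Without Ag09319, or without its second 8 h array, KDM3A and HIF1A were called too, giving 4 genes, and without Ag09309 HIF1A was. Neither the 6 lines whose titles carry no date nor the 3 whose titles do called a gene: BNIP3L was 0.37 (adjusted p = 0.0535) and 0.57 (adjusted p = 0.431), and VEGFA 0.45 (adjusted p = 0.0566) and 0.31 (adjusted p = 0.667). Proliferation markers moved in several lines over the same time. Of 8 such genes 8 were called lower in Ag09319 (background 4.49%), 6 in Ag09309 (4.91%) and 3 in HEP-G2 (1.84%). In the other lines 0 were called, and all 8 means were lower at 36 h in Ag09319, Ag09309 and HEP-G2. The part of these markers in the change of BNIP3L and VEGFA was not tested.

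**Figure D2:**
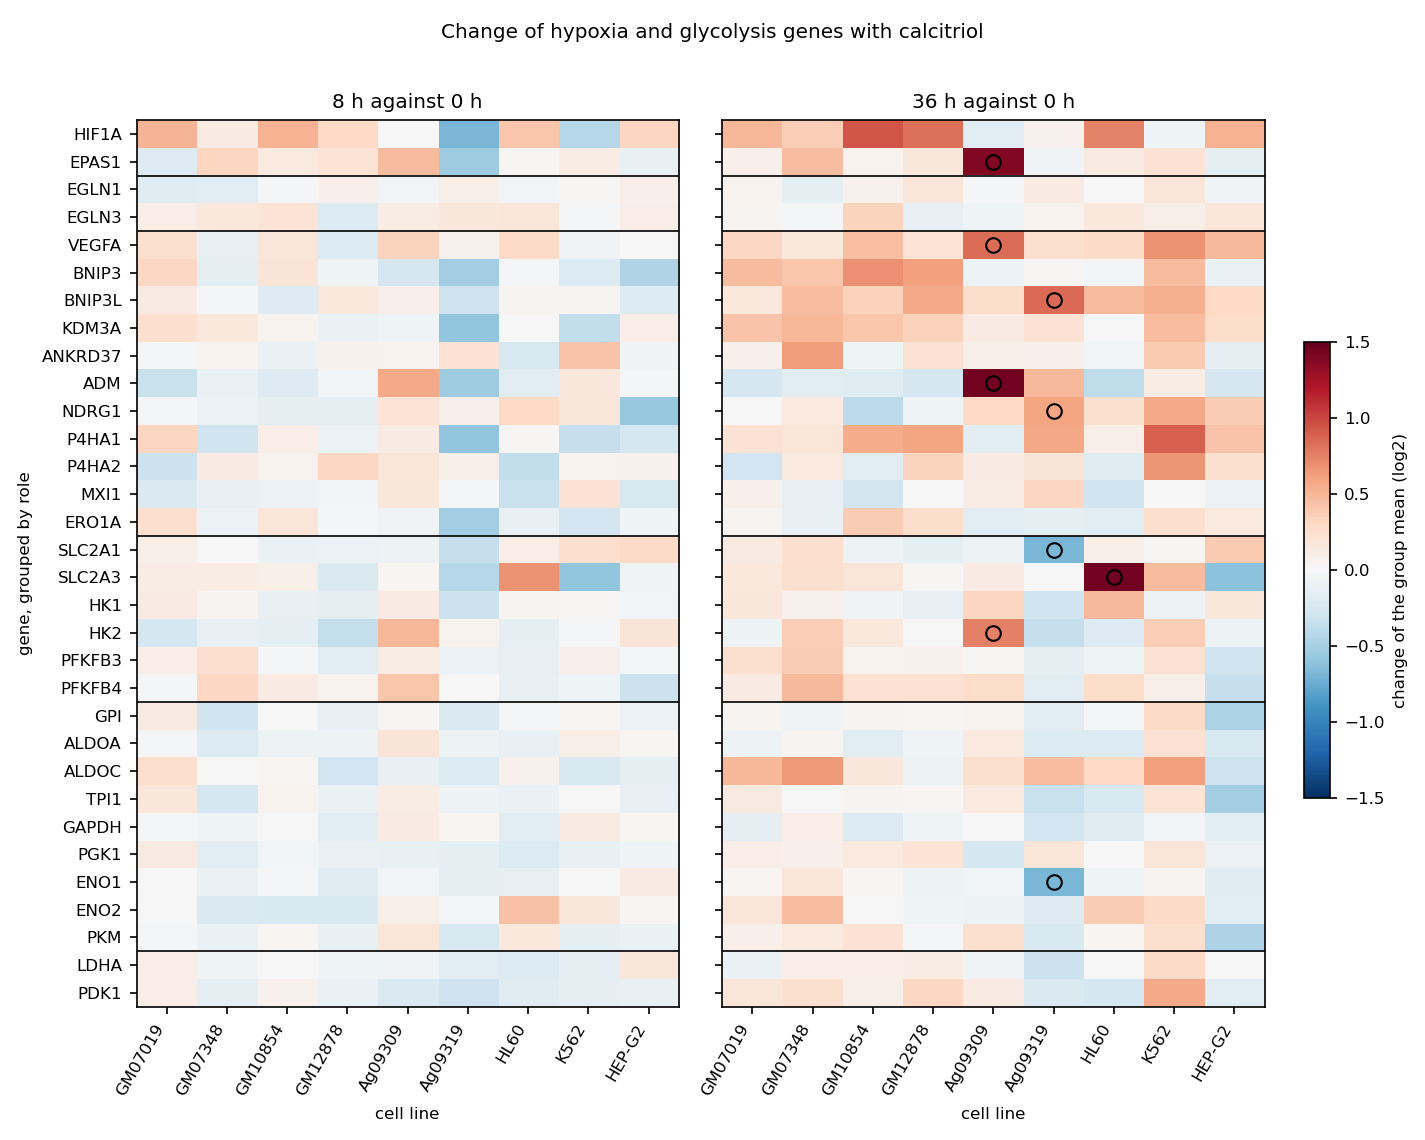
Change in log2 level from 0 h to 8 h (left) and from 0 h to 36 h (right) for the 32 genes, grouped by role (rows), in the 9 lines (columns); colour runs from -1.5 to 1.5 and circles mark pairs called in a single line. No circle lies in the 8 h map and 9 lie in the 36 h map.

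At 8 h nothing passed. Over the 9 lines 0 of 32 genes were called by limma against 0 h, as were 0% of all probe sets, and 0 of the genes and 542 of all probe sets had an unadjusted p under 0.05. The smallest p-values belonged to EGLN3 (0.09 ± 0.06, adjusted p = 1.0) and PGK1 (-0.09 ± 0.06, adjusted p = 1.0), neither of which passed. The change was positive in 10 of 32 genes with a median of -0.03, against 53.1% of probe sets and a median of 0.01 over all tested.

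Between 8 h and 36 h, 4 HIF targets rose over the 9 lines, against 0.37% of probe sets. BNIP3L rose by 0.47 ± 0.08 (adjusted p = 0.00155), KDM3A by 0.37 ± 0.08 (adjusted p = 0.0312), BNIP3 by 0.40 ± 0.09 (adjusted p = 0.0389) and VEGFA by 0.33 ± 0.07 (adjusted p = 0.0448). BNIP3L and KDM3A were higher in 9 of 9 line means, and BNIP3 and VEGFA in 8, with HL60 the exception for both. P4HA1 (0.49 ± 0.12, adjusted p = 0.0601) did not pass. All 11 targets had a positive change (median 0.22), as did 26 of the 32 genes (median 0.10), against 50.5% of probe sets and a median of 0.0016 over all tested. This comparison leans on single lines and arrays: BNIP3L alone was called without GM07348, GM10854, GM12878, K562 or Ag09319, and also without the second 8 h array of Ag09319, and no gene was called without the 3 arrays named above (BNIP3L adjusted p = 0.0563). Without HEP-G2 the calls were BNIP3L, KDM3A and the glycolytic enzyme ALDOC. P4HA1 was called too without GM07019, Ag09309 or HL60. The comparison from 8 h uses the same 36 h arrays as the comparison with 0 h.

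**Figure D3:**
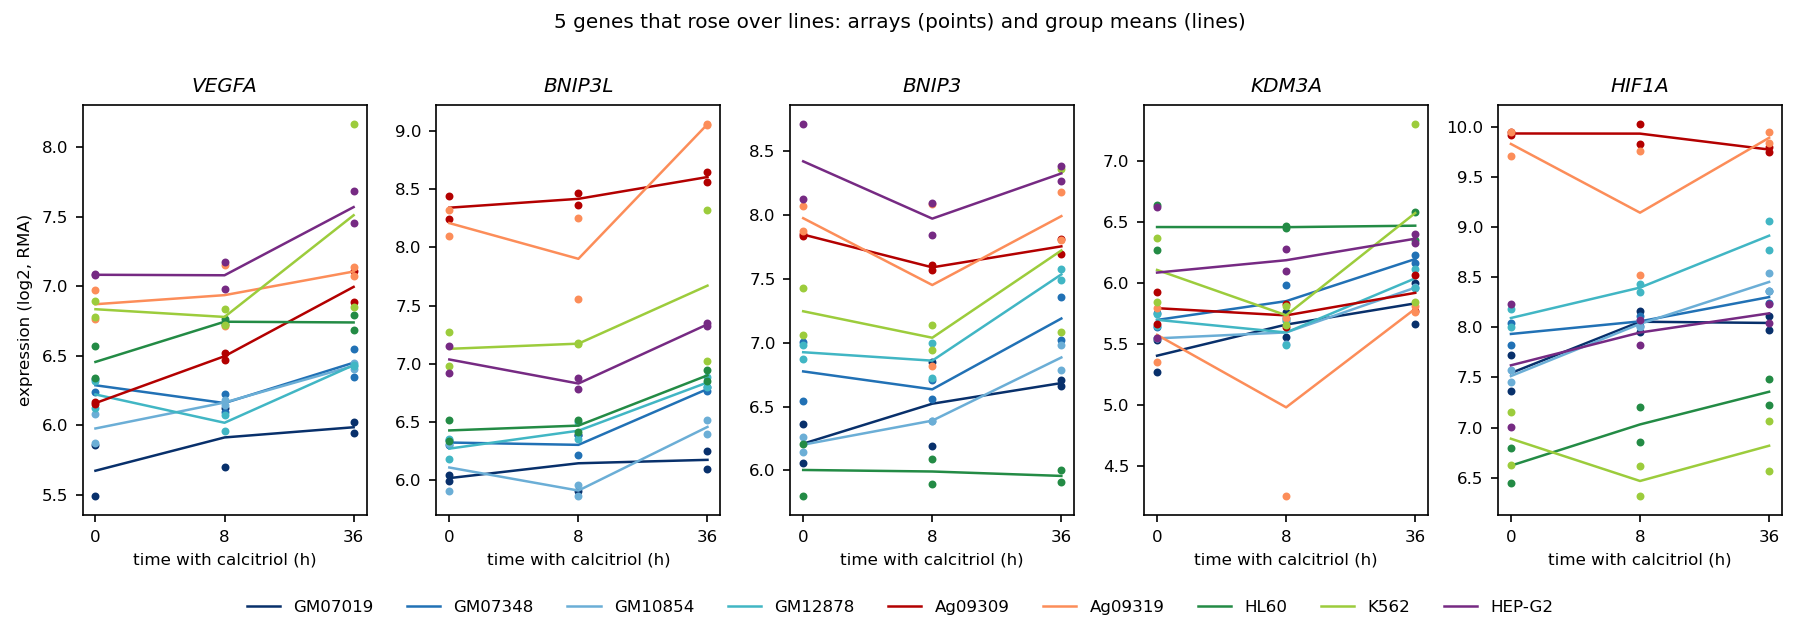
Levels of VEGFA, BNIP3L, BNIP3, KDM3A and HIF1A (log2, y axis) at 0, 8 and 36 h (x axis) in the 9 lines; points are single arrays and lines join group means. In K562 at 36 h the 2 arrays part, with BNIP3L at 8.32 and 7.02.

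The 4 lymphoblastoid lines, taken alone, added HIF1A itself. At 36 h against 0 h HIF1A, BNIP3 and KDM3A rose, each in 4 of 4 lines: 3 of 32 genes, against 1.14% of probe sets. The change was positive in 27 of 32 genes (median 0.12, against -0.01 over all probe sets), but 0 of the 9 glycolytic enzymes were called (7 positive, median 0.05).

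HIF1A moved from 7.72 and 7.37 to 8.12 and 7.97 in GM07019, from 8.04 and 7.83 to 8.36 and 8.24 in GM07348, from 7.45 and 7.58 to 8.36 and 8.55 in GM10854, and from 8.18 and 8.01 to 9.06 and 8.77 in GM12878. In each line both 36 h arrays lay above both 0 h arrays. The rise was 0.66 ± 0.10 (adjusted p = 0.00156).

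BNIP3 moved from 6.36 and 6.06 to 6.66 and 6.71 in GM07019, from 7.01 and 6.54 to 7.02 and 7.36 in GM07348, from 6.26 and 6.14 to 6.79 and 6.98 in GM10854, and from 6.98 and 6.87 to 7.58 and 7.49 in GM12878. The arrays of GM07348 nearly met and those of the other 3 lines were clearly apart. The rise was 0.55 ± 0.09 (adjusted p = 0.00382).

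KDM3A, which removes methyl marks from histone H3 lysine 9, moved from 5.54 and 5.27 to 5.66 and 6.0 in GM07019, from 5.76 and 5.64 to 6.23 and 6.16 in GM07348, from 5.55 in both arrays to 5.96 and 5.97 in GM10854, and from 5.65 and 5.75 to 6.12 and 5.96 in GM12878. Its arrays did not overlap in any of the 4 lines, and the rise was 0.42 ± 0.08 (adjusted p = 0.0111). Its levels are near the median of the arrays, and with no detection calls in the deposited table such low levels are less sure. BNIP3L at 0.38 ± 0.09 (adjusted p = 0.0516) and P4HA1 at 0.39 ± 0.11 (adjusted p = 0.107), both higher in 4 of 4 lines, did not pass. Without GM10854 HIF1A alone was called (BNIP3 adjusted p = 0.0677, KDM3A adjusted p = 0.103), and KDM3A was lost without GM07019 (adjusted p = 0.0605) or GM12878 (adjusted p = 0.053).

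HIF1A was already higher at 8 h in these lines, by 0.37 ± 0.10 in 4 of 4 lines, but this did not pass (adjusted p = 0.781), and HK2 was lower by an amount that did not pass either (-0.22 ± 0.08, adjusted p = 1.0). At 8 h limma called 0 of 32 genes against a background of 0.0257%, with 2 genes and 616 probe sets at an unadjusted p under 0.05. From 8 h to 36 h 1 gene, BNIP3, was called (0.47 ± 0.09, adjusted p = 0.038, 4 of 4 lines), against 0.283% of probe sets. That call was lost without GM07348 (adjusted p = 0.0794), GM10854 (adjusted p = 0.213) or GM12878 (adjusted p = 0.468), and with quantile normalization (adjusted p = 0.0658) or arrays centred on their medians (adjusted p = 0.0522). Of 7 B cell markers in the lymphoblastoid lines 3 were called higher at 36 h against 0 h (background 1.14%), and their part in these changes was not tested.

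The difference in change between the 4 lymphoblastoid and the 5 other lines was itself tested, and none of the 32 genes passed at 36 h against 0 h (background 0.0154%), at 8 h against 0 h (0%) or at 36 h against 8 h (0.0103%). At an unadjusted limma p under 0.05 there were 3, 3 and 2 genes and 1465, 750 and 1088 probe sets. The smallest p at 36 h against 0 h was that of BNIP3, with a change of 0.55 in lymphoblastoid lines and 0.05 in the others, a difference of 0.49 ± 0.15 (adjusted p = 0.452). NDRG1 was next, at -0.08 against 0.42, a difference of -0.49 ± 0.17 (adjusted p = 0.566). At 8 h against 0 h they were BNIP3 (0.36 ± 0.15) and ENO2 (-0.31 ± 0.14), both with adjusted p = 0.873, and at 36 h against 8 h ENO2 (0.41 ± 0.14, adjusted p = 0.867) and NDRG1 (-0.36 ± 0.17, adjusted p = 0.881). A rise called in the lymphoblastoid lines is therefore not shown to differ from the other lines.

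In single lines, the changes past the threshold at 36 h lay in 3 lines. ADM, EPAS1, VEGFA and HK2 rose in Ag09309, BNIP3L and NDRG1 rose and ENO1 and SLC2A1 fell in Ag09319, and SLC2A3 rose in HL60. These were 9 of 288 pairs of gene and line, against 1.38% of all pairs, and against 4.91% of probe sets in Ag09309, 4.49% in Ag09319 and 0.868% in HL60. No pair was called among the 128 of the lymphoblastoid lines (background 0.0719%).

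In Ag09309 the ADM arrays read 8.61 and 8.2 at 0 h, 8.62 and 9.32 at 8 h, and 9.70 and 10.002 at 36 h. EPAS1 read 7.81 and 7.79, then 8.06 and 8.48, then 9.20 and 9.18. For both genes the 36 h arrays stood above all earlier ones, and the rises against 0 h were 1.45 ± 0.20 for ADM (adjusted p = 4.59e-06) and 1.39 ± 0.19 for EPAS1 (adjusted p = 2.92e-06). VEGFA read 6.16 and 6.15 at 0 h, 6.47 and 6.52 at 8 h and 7.10 and 6.88 at 36 h, a rise of 0.84 ± 0.22 (adjusted p = 0.017). HK2, the inducible hexokinase, read 6.43 and 6.5, then 6.88 and 7.07, then 7.07 and 7.39, a rise of 0.76 ± 0.19 (adjusted p = 0.0104). The 8 h arrays of all 4 genes lay above their 0 h mean, with no gene called at that time.

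The untreated Ag09309 arrays were also those with B cell markers. The summed level of 7 such markers was 42.6 and 42.5 at 0 h, 30.6 and 30.0 at 8 h and 29.1 and 28.5 at 36 h, against 53.7 to 56.4 in untreated lymphoblastoid lines. MS4A1 (CD20) read 8.15 and 8.07, then 3.38 and 3.29, then 3.10 and 2.85. All 7 were called lower at 36 h against 0 h (background 4.91%), and 0 of 7 were called between 8 h and 36 h (0.38%). At 8 h against 0 h 5 of 7 were called lower, against 0.233% of all pairs of probe set and line over the 9 lines. The mean of each of the 7 was lower at 8 h than at 0 h, and lower again at 36 h. The part of the markers in the rises, against 0 h or against 8 h, was not tested. Between 8 h and 36 h EPAS1 rose by 0.92 ± 0.19 (adjusted p = 0.0152) and ADM by 0.88 ± 0.20 (adjusted p = 0.0346). Those 2 calls do not hold against the loss of 1 array: without the first 8 h array ADM gave 0.53 (adjusted p = 0.975), and the highest adjusted p for EPAS1 was 0.51. Against 0 h, ADM and EPAS1 stayed called whichever Ag09309 array was left out (highest adjusted p 0.00185 and 0.00027), and VEGFA and HK2 did not (0.177 and 0.207).

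In Ag09319 ENO1 and SLC2A1 fell, and BNIP3L and NDRG1, both from the group of HIF targets, rose. ENO1 (enolase) read 11.54 and 11.52 at 0 h, 11.34 and 11.44 at 8 h and 10.85 and 10.83 at 36 h, and fell by 0.69 ± 0.14 (adjusted p = 0.0012). SLC2A1 read 7.79 and 7.71, then 7.49 and 7.31, then 7.05 and 7.08, and fell by 0.68 ± 0.16 (adjusted p = 0.00558). These were the only members called lower in any line at 36 h against 0 h. BNIP3L read 8.32 and 8.10 at 0 h, 8.25 and 7.55 at 8 h and 9.07 and 9.05 at 36 h, and rose by 0.85 ± 0.23 (adjusted p = 0.0191). NDRG1 read 7.24 and 7.17, then 7.24 and 7.31, then 7.72 and 7.88, and rose by 0.59 ± 0.16 (adjusted p = 0.0185). In each of the 4 genes the 36 h arrays did not overlap the 0 h arrays. In a fit of this line's 6 arrays alone none of the 4 passed (adjusted p 0.69 to 0.93), whereas the Ag09309 and HL60 calls stayed. Of the 4, only ENO1 stayed called whichever array was left out (highest adjusted p 0.0241). All 8 proliferation markers fell in this line at 36 h against 0 h (median -1.36), and their part was not tested.

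From 8 h to 36 h Ag09319 gave 5 calls, but its second 8 h array correlated poorly with the first, and 18% of all probe sets were called there. ADM rose from 10.07 and 9.87 to 11.29 and 10.70 (1.02 ± 0.20, adjusted p = 0.000594), and without that array it was still called (0.92, adjusted p = 0.0184). P4HA1 (1.18 ± 0.34, from 8.37 and 6.97 to 8.78 and 8.91), BNIP3L (1.16 ± 0.23), NDRG1 (0.52 ± 0.16) and ENO1 (-0.55 ± 0.14) were called with it and lost without it, at adjusted p = 0.679, 0.0653, 0.103 and 0.0937. KDM3A, P4HA1, BNIP3, HIF1A and ERO1A read more than 1 log2 unit lower on that array than on its partner.

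In HL60 the neuronal-type glucose transporter SLC2A3 was higher at each later time. It read 7.39 and 7.42 at 0 h, 8.12 and 8.04 at 8 h and 8.94 and 8.78 at 36 h, with no overlap between times. The rise at 36 h was 1.45 ± 0.19 (adjusted p = 2.45e-06), and the change at 8 h, 0.67 ± 0.19, did not pass (adjusted p = 0.193). The near-identical SLC2A14 also rose in HL60 (0.87 ± 0.22, adjusted p = 0.0364), so the split between these transporters is uncertain. In other lines SLC2A3 moved by 0.47 in K562 and -0.62 in HEP-G2 (adjusted p = 0.082), which did not pass. The mean level of 6 monocytic markers in HL60 was 6.25 at 0 h, 6.86 at 8 h and 7.39 at 36 h. Among them CD14 read 5.98, 8.57 and 10.08 and CSF1R 4.99, 4.79 and 5.08. The part of these markers in the change of SLC2A3 was not tested.

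In K562 the 2 arrays at 36 h disagreed on these genes. The first read higher than the second for 31 of 32 genes, with a median gap of 0.56, against 71.0% of all probe sets and a median gap of 0.22. Smaller gaps in 1 direction were seen in other groups, as in GM07348 at 0 h (29 of 32 genes, median gap 0.19). In K562 at 36 h the gap exceeded 1 log2 unit for 7 genes: P4HA1 (8.76 and 6.87), KDM3A (7.31 and 5.84), PDK1 (8.18 and 6.82), VEGFA (8.17 and 6.85), ALDOC (9.13 and 7.82), BNIP3L (8.32 and 7.02) and BNIP3 (8.37 and 7.08). The second array lay within the span of the 0 h arrays, or close to it, for VEGFA (6.89 and 6.77), BNIP3L (7.27 and 6.98) and BNIP3 (7.43 and 7.06). For KDM3A the second array (5.84) lay below the 0 h mean of 6.11. No gene was called in K562 against 0 h (background 0.0411%), although 28 of 32 changes were positive (median 0.24, against 0.13 and 75.4% over all probe sets). SLC2A3 read 9.49 and 9.33 at 0 h, 8.79 and 8.83 at 8 h and 10.29 and 9.47 at 36 h, and its rise from 8 h (1.07 ± 0.19, adjusted p = 0.0029) was lost without the first 36 h array (0.66, adjusted p = 1.0).

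In HEP-G2 NDRG1 read 7.61 and 7.23 at 0 h, 6.75 and 6.97 at 8 h and 7.90 and 7.70 at 36 h. The step from 8 h to 36 h was a rise of 0.95 ± 0.16 (adjusted p = 0.000391), and the change at 8 h against 0 h did not pass (-0.56 ± 0.16, adjusted p = 1.0). Of 8 proliferation markers 7 were called lower in HEP-G2 over the same step (background 1.65%) and all 8 had lower means, and their part was not tested. Against 0 h at 36 h no gene was called in HEP-G2 (background 1.84%). Over all lines limma called 0 pairs at 8 h against 0 h (background 0.233%) and 9 pairs at 36 h against 8 h (2.27%): 2 in Ag09309 (0.38%), 5 in Ag09319 (18%), 1 in HEP-G2 (1.65%) and 1 in K562 (0.139%).

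**Figure D4:**
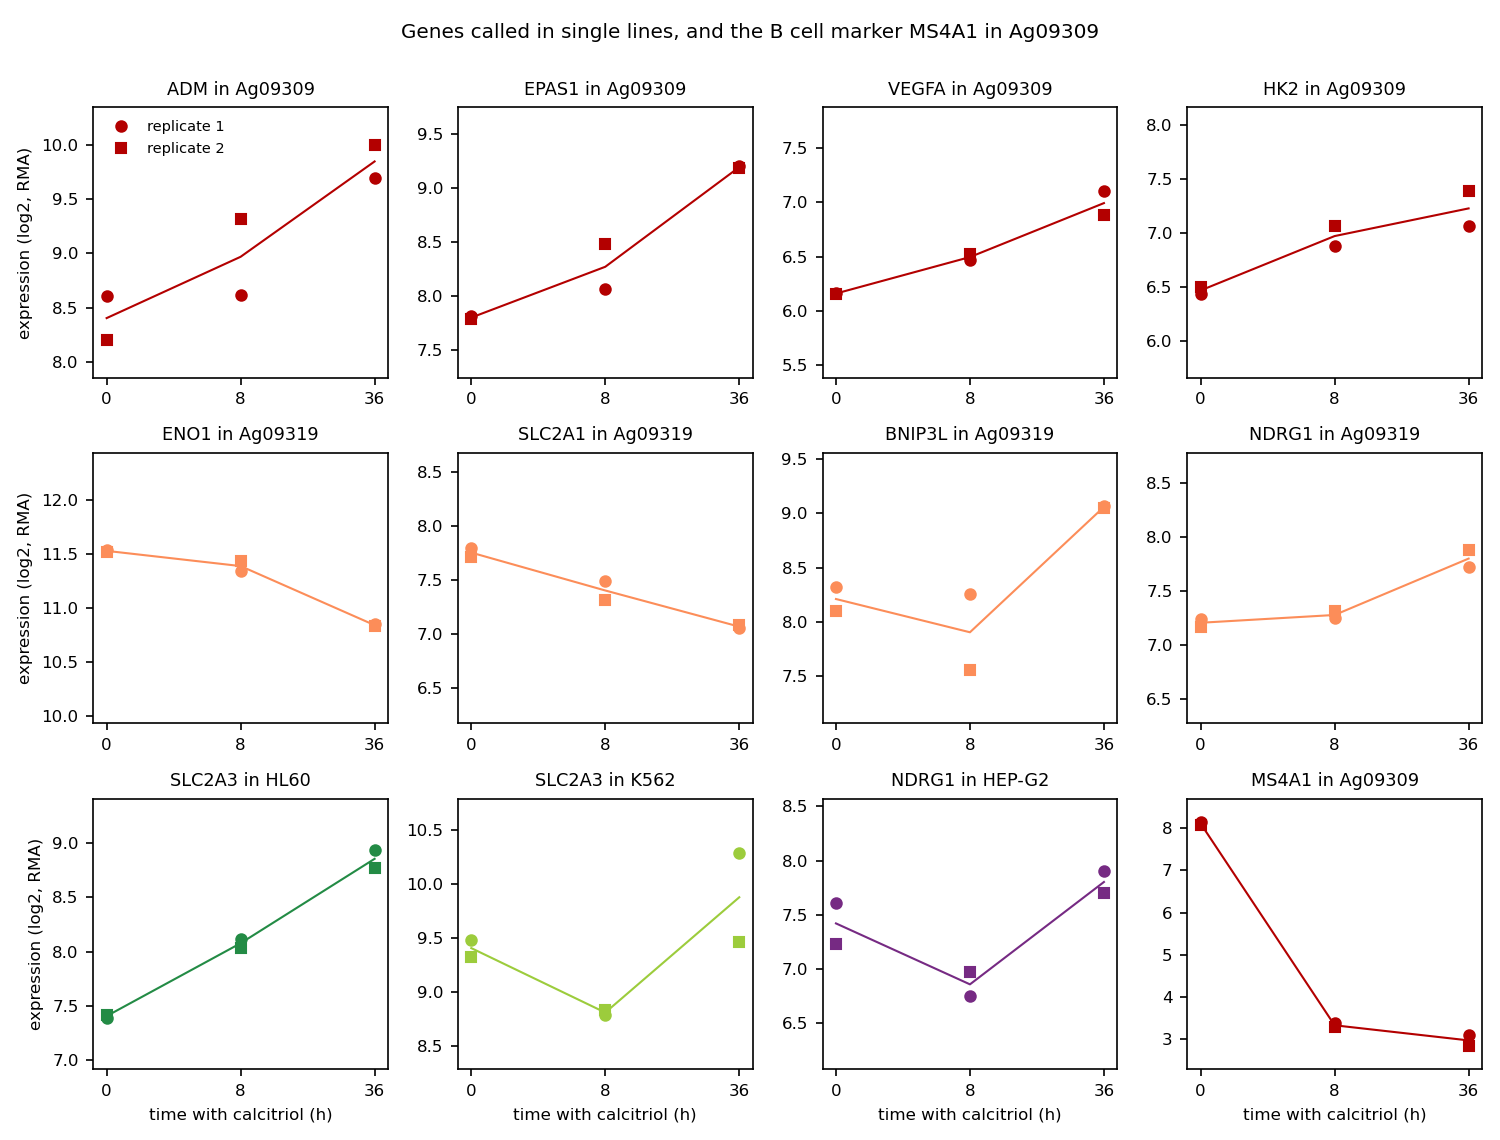
Levels (log2, y axis) at 0, 8 and 36 h (x axis) of genes called in single lines and of the B cell marker MS4A1 in Ag09309; points are the 2 arrays and lines join group means. SLC2A3 in HL60 climbs from 7.39 and 7.42 to 8.94 and 8.78, and MS4A1 in Ag09309 drops from 8.15 and 8.07 to 3.10 and 2.85.

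Whether the change itself differed among the 9 lines was tested with an F test in the same fit. At 36 h against 0 h it did for SLC2A3 (F = 8.62, adjusted p = 0.000202), ADM (F = 8.14, adjusted p = 0.00033), EPAS1 (F = 5.79, adjusted p = 0.00461) and NDRG1 (F = 3.97, adjusted p = 0.0435), 4 of 32 genes against 4.61% of probe sets, and at 36 h against 8 h for SLC2A3 (F = 6.29, adjusted p = 0.00503), ADM (F = 5.50, adjusted p = 0.0121) and NDRG1 (F = 5.11, adjusted p = 0.0178), against 2.7%. At 8 h against 0 h limma called 0 (0.889%), with 5 genes and 1307 probe sets at an unadjusted p under 0.05; the smallest were SLC2A3 (F = 3.82, adjusted p = 0.179) and NDRG1 (F = 2.59, adjusted p = 0.612). Single lines carried these calls. For the change from 0 h to 36 h, ADM and EPAS1 were lost without Ag09309 (adjusted p = 0.552 and 0.999), SLC2A3 without HL60 (adjusted p = 0.283) and NDRG1 without GM10854 (adjusted p = 0.398). From 8 h to 36 h, ADM was lost without Ag09319 (adjusted p = 0.229), and SLC2A3 and NDRG1 without HEP-G2 (adjusted p = 0.122 and 0.342). In Ag09319, the other line with fibroblast markers, the changes at 36 h against 0 h were -0.05 for EPAS1, 0.48 for ADM and -0.35 for HK2, none of which passed.

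Further genes of the same pathways were read beside these. Of 35 other HIF targets, DDIT4 and CCNG2 rose over the 9 lines at 36 h against 0 h and none fell, against 0.468% of all probe sets called. DDIT4, an inhibitor of mTORC1 signalling, moved from 6.06 to 6.76 (0.71 ± 0.12, adjusted p = 0.00511), higher in 8 of 9 lines, from -0.05 in HEP-G2 to 1.54 in K562. CCNG2, a cyclin linked to cell cycle arrest, moved from 6.22 to 6.57 (0.35 ± 0.08, adjusted p = 0.0495), also in 8 of 9 lines. Of 14 genes of HIF machinery and regulation 0 passed over the 9 lines, nor did any of 30 other glycolysis and glucose genes. In the lymphoblastoid lines DDIT4 rose by 0.76 ± 0.09 (adjusted p = 0.000139) and VHL, the substrate receptor for HIF degradation, by 0.40 ± 0.09 (adjusted p = 0.0388), both in 4 of 4 lines, against 1.14% of probe sets, and again 0 of 30 glycolysis genes passed. Over the 9 lines from 8 h to 36 h 0 genes of the 3 lists passed (background 0.37%).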

How the data were processed

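The log2 expression values were used as deposited by the authors in the series matrix: 33297 probe sets on 54 arrays, made with Affymetrix Expression Console 1.0 and RMA per the submitters' processing notes. RMA corrects background, normalizes and summarizes probes. Whether it was run on all arrays together, and the annotation build, are not given in the sources used here. Columns were matched to samples by the labels, giving 27 groups of 2 arrays. For 1 line the title (GM18054) and the cell line label (GM10854) differ, and the cell line label was used. No 2 arrays were identical.

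Symbols came from the platform's annotation in the probe-to-gene table, which lists 21214 probe sets, 19460 with 1 symbol and 1754 with several. All 19460 were fitted with limma 3.58.1 (R 4.3.3) on the log2 scale with no filter, and p-values were adjusted by Benjamini-Hochberg (threshold 0.05). Changes over 9 lines, over the 4 lymphoblastoid lines and between these and the 5 others used means of the 2 arrays, with line and time as terms, so a line is the replicate. Single lines, F tests and 0 h levels used 1 fit of 27 groups (27 residual degrees of freedom). Promoters were scanned and figures drawn with Python 3.11.15, numpy 2.4.6, pandas 2.3.3 and matplotlib 3.10.9. The fits were tested on simulated data of 19460 probe sets.

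Members and lists were chosen with earlier results of these data known. The text gives full values for genes called over the 9 lines, over the lymphoblastoid lines or between classes, and for the up to 5 largest rises and 5 largest falls called in each line; where a comparison called none, the 2 genes with the smallest p; for 0 h levels, the highest and lowest lines; and of the other pathway genes at most 10 called over the lines. The K562 arrays at 36 h, the SLC2A14 copy and values of other lines were described after they were seen. Alternatives were quantile normalization, arrays centred on their medians, a filter at the median mean level (5.22), 1 probe set per gene, all probe sets deposited, a replicate block, the line's own arrays, the lines whose titles carry no date, and leaving out lines, arrays, or arrays whose correlation with their line dropped by over 0.02 (1 array). Leaving out 3 arrays and the lines whose titles carry one were added after seeing the data. Array number limits the precision, and no detection calls were used.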

Additional observations from a re-analysis of the deposited data

Results flagged for a closer look

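In 10 cases 1 of the 9 lines stood far from the others in its change. From 0 h to 36 h these were ADM (1.45) and EPAS1 (1.39) in Ag09309, and SLC2A1 (-0.68) and ENO1 (-0.69) in Ag09319. At 8 h against 0 h they were NDRG1 in HEP-G2 (-0.56) and PGK1 in GM07019 (0.13), neither of which passed a test. From 8 h to 36 h they were BNIP3L in Ag09319 (1.16), ANKRD37 in GM07348 (0.57), P4HA2 in K562 (0.60) and ENO2 in GM07348 (0.68), of which only BNIP3L passed. Chance flags about 1 in 20 groups, and 32 genes were looked at in each of 3 comparisons.

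In 7 cases the change differed among the 9 lines by an F test. From 0 h to 36 h these were SLC2A3 (F = 8.62), ADM (F = 8.14), EPAS1 (F = 5.79) and NDRG1 (F = 3.97), and at 36 h against 8 h SLC2A3 (F = 6.29), ADM (F = 5.50) and NDRG1 (F = 5.11). No explanation was tested.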

How the results depend on the processing

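No change called in the main fit reversed under any alternative: of the values for these changes, 418 kept their sign and side of the threshold and 127 were no longer past it. Both counts include F values, which have no direction and could not reverse. Changes named above as not passing are in neither count, and whether they reversed was not examined. Counts of genes called moved as follows, and the cause was not tested where none is named. Over the 9 lines at 36 h against 0 h (2) the count was 4 without the array that stands apart, 0 in the lines with or without a date in the title (3 and 6 lines) and 2 to 4 without 1 line. From 8 h to 36 h (4) it was 2 with quantile normalization, 1 with 1 probe set per gene, 1 without the array that stands apart, 0 without 3 arrays, 0 in either set of titles and 1 to 5 without 1 line. In the lymphoblastoid lines at 36 h against 0 h (3) it was 1 with all probe sets and 1 to 4 without 1 line, and at 36 h against 8 h (1) it was 0 with quantile normalization, centred arrays, all probe sets or the titles with no date, and 0 to 1 without 1 line. In single lines the 9 pairs at 36 h against 0 h became 18 without 3 arrays and 6 to 22 without 1 array (22 without the second K562 array at 36 h), the 0 at 8 h became 2 without 3 arrays and 0 to 12 without 1 array (12 without the first Ag09319 array at 8 h), and the 9 at 36 h against 8 h became 17 with quantile normalization, 0 with the line's own arrays and 5 to 22 without 1 array (5 without the second Ag09319 array at 8 h). Changes that differed among lines moved from 4 to 9 with quantile normalization or without 3 arrays and to 1 to 5 without 1 line at 36 h against 0 h, from 0 to 1 without 3 arrays at 8 h, and from 3 to 5 with quantile normalization and to 1 to 3 without 1 line at 36 h against 8 h.

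The labels do not say that replicate numbers pair samples, and the numbers were not taken as pairs: deviations of same-numbered arrays correlated from -0.41 to 0.58 within lines, with all 3 correlations over 0.1 in K562 (0.36 to 0.58), GM07348 and GM12878 and not in the other 6 lines. With a replicate block the single-line counts were 9, 0 and 12 at 36 h against 0 h, 8 h against 0 h and 36 h against 8 h, and the counts of changes that differed among lines were 4, 0 and 3, though NDRG1 at 36 h against 0 h was not among them (adjusted p = 0.0607). Low levels had no detection calls, so changes near the array medians are less sure.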

Other observations

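Further hypoxia and glucose genes changed in single lines at 36 h against 0 h by the limma fit of all arrays, and were chosen after their values were seen. In Ag09309 PDK2, a kinase that holds back pyruvate oxidation, rose by 1.02 ± 0.23 (adjusted p = 0.00396) and TXNIP, an inhibitor of glucose uptake, by 0.83 ± 0.19 (adjusted p = 0.0053), while ERRFI1, a feedback inhibitor of growth factor receptors, fell by 0.87 ± 0.23 (adjusted p = 0.0163). PYGL, a glycogen phosphorylase, rose in Ag09309 (0.70 ± 0.20, adjusted p = 0.0349) and in Ag09319 (1.17 ± 0.20, adjusted p = 0.000146), and in Ag09319 the phosphofructokinase PFKP fell by 0.63 ± 0.17 (adjusted p = 0.0226). HL60 raised PFKFB2, a control enzyme of glycolysis, by 1.10 ± 0.21 (adjusted p = 0.00169), which also rose in Ag09309 (0.71 ± 0.21, adjusted p = 0.0364), and HEP-G2 the hepatic glucose transporter SLC2A2 by 1.05 ± 0.23 (adjusted p = 0.00785). In K562 DDIT4 rose by 1.54 ± 0.25 (adjusted p = 0.0037) and BHLHE40, a transcriptional repressor, by 0.97 ± 0.18 (adjusted p = 0.0114), in the group whose 2 arrays parted for the genes above, and DDIT4 also rose in Ag09319 (0.85 ± 0.25, adjusted p = 0.0401). At 8 h against 0 h 1 such gene passed: MPC1, a subunit of the mitochondrial pyruvate carrier, fell by 0.84 ± 0.19 in Ag09309 (adjusted p = 0.00841). All the Ag09309 changes given here, at 8 h and at 36 h, are against the untreated arrays that carried B cell markers. The part of those markers was not tested.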
